A study of Mus musculus with 3 samples.

Results

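The genes described here are 10 transcription factor genes that Hedgehog (HH) signaling controls in the neural tube. They are Nkx2-2, Nkx2-9, Nkx6-1, Nkx6-2, Olig1, Olig2, Foxa2, Dbx1, Pax6 and Pax7. They were chosen by name, as genes that are not HH targets in the limb bud, and no expression value was at hand to check their activity in this tissue. GLI3 peaks were assigned to them by position, when the summit lay within 100 kb of any annotated transcription start site (TSS) of the gene. By this rule 42 of the 17149 peaks in the list belonged to the 10 genes.

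GLI3 binding was mapped by ChIP-seq in forelimb buds of mouse embryos at E10.5 (32 to 35 somites). The embryos were of mixed strain background and carried an endogenous Gli3 allele with a FLAG tag, although their genotype label reads wild type. The same holds for all 3 libraries, which were 2 ChIP replicates and 1 input, each from pooled limb buds of 2 litters. The data analysed are 1 list of peaks without separate values for the replicates. Differences are therefore described without a replicate error, and no test was made. Each peak has a rank, a false discovery rate (FDR) and a log2 fold enrichment over input, taken from its best window. Peaks with an FDR under 0.05, the threshold of the study, are called GLI3 binding regions (GBRs) here. The threshold fell at a log2 fold enrichment of 2.31. The list does not hold the numbers of reads behind the peaks.

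In the vertebrate neural tube, Sonic hedgehog from the notochord and floor plate sets up domains of progenitors along the dorsal-ventral axis. It does so through the GLI transcription factors, of which GLI3 acts mainly as a repressor where the signal is absent. Foxa2 (floor plate), Nkx2-2 and Nkx2-9 (the most ventral progenitors), Olig2 (motor neuron and oligodendrocyte progenitors) and Nkx6-1 and Nkx6-2 (the ventral neural tube) are switched on by the signal. Pax6, Pax7 and Dbx1 mark intermediate or dorsal progenitors, and the signal limits their extent ventrally. Since GLI proteins recognise a short DNA sequence, the question is whether the regions around these genes are occupied in limb bud cells.

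The sequence that GLI proteins bind was searched as the consensus GACCACCCA on both strands. A GLI motif below means a match with at most 1 mismatch, so a region without one may still hold a more divergent GLI site. An exact match within 100 kb of these genes was found 19 times, and 1 of these lay inside a listed peak (5.26%, 95% Wilson interval 0.935 to 24.6). Around all protein-coding genes it was 2.34% of matches (288 of 12317), so the count of 1 is no more than a description. The interval covers counting error only. The match in a peak is 1.85 kb upstream of the nearest TSS of Nkx2-2. It is shown first, with its consensus in capitals, 10 bases on each side and the strand on which the consensus reads (GRCm38). Below it are matches close to other members that lay in no listed peak, to show how the same core stands in bound and unlisted sites.
Nkx2-2, upstream, in a GBR, chr2:147188241-147188269, minus strand: gcccgggtccGACCACCCAggacgcgccg
Nkx2-9, upstream, unlisted, chr12:56614631-56614659, minus strand: gcctccgcccGACCACCCAgcgcgcggta
Nkx2-9, further upstream, unlisted, chr12:56621372-56621400, plus strand: gcttgggagcGACCACCCAaggtgattcc
Nkx2-9, downstream, unlisted, chr12:56606750-56606778, plus strand: actcatacaaGACCACCCActcagaatac
Nkx6-2, downstream, unlisted, chr7:139575079-139575107, plus strand: caaggacaggGACCACCCAtcctggggct
Olig2, upstream, unlisted, chr16:91214509-91214537, plus strand: aaataaagagGACCACCCAgatcttttcc

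The Nkx2-9 match nearest to its TSS stood 1.36 kb upstream. Of the 20 flanking bases shown, 11 were the same as at the Nkx2-2 site. Each of the other 17 unlisted matches shared 9 or fewer, and this comparison was made after the sequences were seen. The nearest listed peak to this Nkx2-9 match was 77.9 kb away. All 3 exact matches within 10 kb of Nkx2-9 were outside every listed peak. The same was true of the 5 matches assigned to Nkx6-2, which stood 7.70 to 51.1 kb from its TSS. The 2 matches assigned to Olig2 lay 10.9 and 84.0 kb upstream, and both were unlisted. Pax6 had no exact match within 100 kb. With 1 mismatch allowed, 435 matches lay within 100 kb of a member and 3 of them in a listed peak (0.690%), beside 0.650% around all protein-coding genes. Within 10 kb the same 3 were among 53 matches (5.66%, 95% Wilson interval 1.94 to 15.4), beside 1.15% around all protein-coding genes, and 11.3% lay within 250 bp of a summit, beside 1.53%. These differences were not tested.

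**Figure D1:**
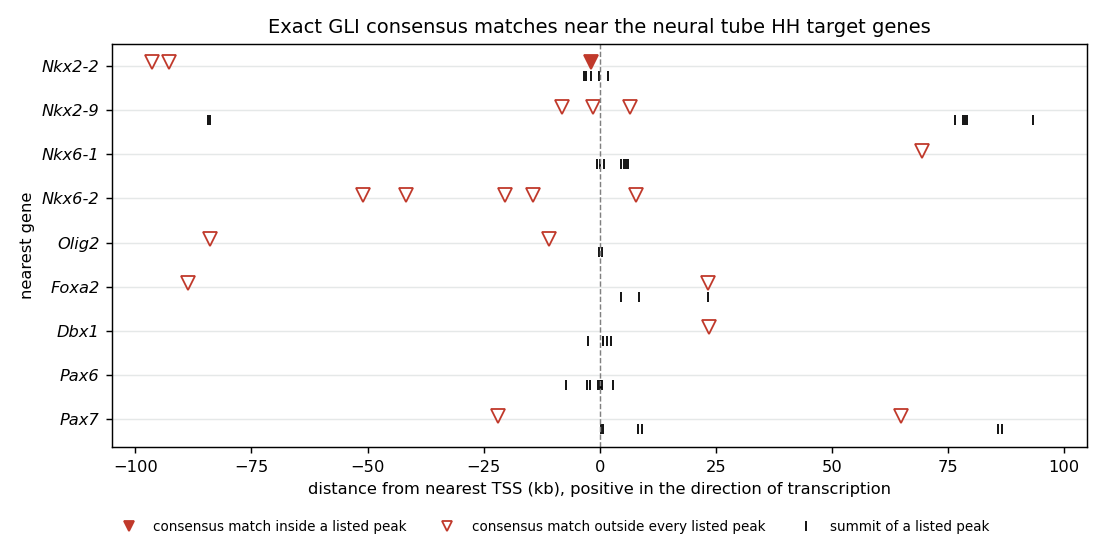
Exact GLI consensus matches (triangles) and summits of listed peaks (vertical marks) by distance from the nearest TSS in kb, in a row for each gene, with Olig1 sharing the Olig2 row. Of 19 matches the filled triangle at Nkx2-2 is the only one inside a listed peak, and 5 open triangles lie around Nkx6-2, which has no summit.

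Peaks were listed within 100 kb of 9 of the 10 genes, and 7 had at least 1 GBR. Among all 21938 protein-coding genes, 71.9% had a listed peak and 53.9% had a GBR within that distance. In a list of 10 genes, nothing more is read from counts this near to the background. For 5 of the 7, a GBR had the member as the gene of its nearest protein-coding TSS. The exceptions were Olig1, counted through the GBR at Olig2, and Nkx2-9, counted through a GBR at Pax9. Nkx6-2 had no listed peak, and Dbx1 and Pax6 had listed peaks but no GBR. Within 10 kb of a TSS, 7 genes had a listed peak and 4 had a GBR, where 38.8% and 22.8% of all protein-coding genes did. The 4 were Nkx2-2, Nkx6-1, Olig2 and Foxa2. Nkx2-9, Nkx6-2 and Olig1 had no listed peak within 10 kb, and Dbx1, Pax6 and Pax7 had 16 between them, none of them a GBR.

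Of the 42 peaks, 10 were GBRs (23.8%), whereas 42.5% of all peaks listed on placed chromosomes were. The median log2 fold enrichment of the 42 was 2.10 (interquartile range 1.95 to 2.31), beside 2.23 (1.99 to 2.60) over all listed peaks. The 10 GBRs had a median of 2.82, beside 2.69 for all 7282. The best of them ranked 857. The highest log2 fold enrichment in the list was 6.37, and the highest at a member was 3.43.

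**Figure D2:**
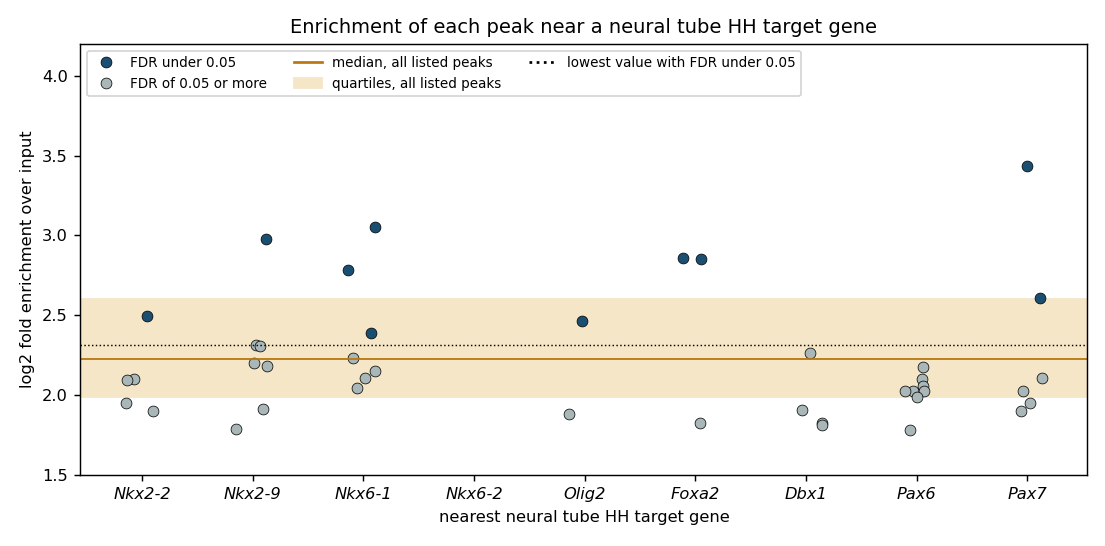
Log2 fold enrichment over input of each of the 42 peaks (points), by nearest member gene, with the median and quartiles of all listed peaks (line and band) and the lowest value with an FDR under 0.05 (dotted). Pax7 has the highest point at 3.43, all points of Dbx1 and Pax6 lie below the dotted line, and Nkx6-2 has none.

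Foxa2, the floor plate determinant, had 3 listed peaks and 2 GBRs, all on the 3′ side of the gene. The GBRs lay 4.56 kb (chromosome 2, 148040650 to 148040999) and 8.34 kb (148036950 to 148037299) downstream of its nearest TSS. Their log2 fold enrichments were nearly equal, at 2.85 and 2.86, and they ranked 2686 and 2637. The nearer summit was intergenic, and the farther was in an intron of the noncoding gene 9030622O22Rik. A floor plate enhancer with a GLI site is known on the 3′ side of Foxa2. Its coordinates were not in the sources used here, so overlap with these peaks was not tested.

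Only the farther Foxa2 GBR held a GLI motif with at most 1 mismatch in its window, which runs from 250 bp before to 250 bp after the summit. The match was 195 bp from the summit and just outside the called peak. It carried C3A, counted from 1 at the 5′ end of the consensus. Another peak 23.3 kb downstream was the weakest at Foxa2 (log2 1.82, FDR 1), yet an exact consensus stood 79 bp from its summit. The called peak was 100 bp long and did not reach this match.
Foxa2, GBR ranked 2637, chr2:148036918-148036946, minus strand: aacaagcaggGAACACCCAagtagaagct
Foxa2, peak ranked 16129, chr2:148022232-148022260, plus strand: ctttccctctGACCACCCAgcaggaaaaa

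Nkx2-2, which specifies the progenitors next to the floor plate, had 5 listed peaks within 3.43 kb of a TSS and none farther out to 100 kb. One was a GBR (chromosome 2, 147188150 to 147188399, log2 2.50, FDR 0.0114, rank 5226), 1.86 kb upstream of the nearest TSS. It lay in an intron of the longer Nkx2-2 transcripts and within the annotated noncoding genes Nkx2-2os and 6430503K07Rik. The exact consensus was 12 bp from its summit, the closest of the 6 motif matches found in the windows of all 42 peaks. The 201 bp centred on the summit are printed from the plus strand, with the consensus, here as its reverse complement TGGGTGGTC, in capitals.
Nkx2-2, GBR ranked 5226, chr2:147188167-147188367, plus strand: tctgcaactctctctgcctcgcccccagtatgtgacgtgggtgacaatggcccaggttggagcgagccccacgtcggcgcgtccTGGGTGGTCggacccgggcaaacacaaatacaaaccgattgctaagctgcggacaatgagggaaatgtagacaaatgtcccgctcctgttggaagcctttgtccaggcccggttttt

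The other peaks of Nkx2-2 were weaker and held no motif. Their log2 fold enrichments were 2.10 at 0.223 kb upstream, 2.10 in a coding exon 1.80 kb downstream, 1.95 at 3.07 kb upstream and 1.90 at 3.43 kb upstream. The GBR thus stood 0.40 log2 units above the next peak of the gene.

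Nkx2-9, a close relative of Nkx2-2 in sequence and in its ventral expression, had no listed peak within 50 kb. It had 7 within 100 kb, and another gene's TSS was nearer to every one of them. The single GBR (chromosome 12, 56697100 to 56697549, log2 2.98, rank 2135) was in an intron of Pax9, 84.0 kb upstream of Nkx2-9 and 1618 bp from a Pax9 TSS. A second Pax9 peak was at log2 2.31, and the remaining 5 lay around Nkx2-1, from 76.5 to 93.4 kb downstream of Nkx2-9, with log2 values of 1.79 to 2.31. No peak within 100 kb had Nkx2-9 as the gene of its nearest TSS.

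Nkx6-1, expressed across the ventral neural tube, had the most GBRs of the 10 genes, 3 of 7 listed peaks. All 7 lay within 6.13 kb of its TSS. Fewer listed peaks were found at 99.4% of protein-coding genes within 10 kb and at 89.0% within 100 kb, and 81.9% had fewer GBRs within 100 kb. At 10 kb the share was 99.6% for Pax6, 98.4% for Nkx2-2 and 97.1% for both Dbx1 and Pax7. The best (chromosome 5, 101659600 to 101659999, log2 3.05, rank 1835) was in an intron 5.26 kb downstream of the TSS. The next (101658700 to 101659199, log2 2.79, rank 3064) was 6.13 kb downstream in the UTR at the 3′ end of the gene. The third (101665500 to 101665749, log2 2.39, rank 6349) was 0.541 kb upstream, at the promoter. The 4 peaks that were not GBRs ran from 2.05 to 2.23, and none of the 7 held a GLI motif.

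Nkx6-2, its paralog, had no peak even at 200 kb. The nearest in the list was 219 kb away (rank 1201, log2 3.26), with Inpp5a as the gene of its nearest TSS. Nkx6-1 thus had 7 listed peaks near its TSS, and its paralog had 0.

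Olig2 and Olig1 lie side by side and shared the same 2 peaks, both at Olig2. Olig2 specifies motor neuron and oligodendrocyte progenitors, and Olig1 acts in the oligodendrocyte lineage. The GBR (chromosome 16, 91225000 to 91225399, log2 2.46, FDR 0.0114, rank 5601) was 0.245 kb upstream of the Olig2 TSS and 44.6 kb from that of Olig1. It held no GLI motif. The other peak, 0.545 kb inside Olig2, had a log2 fold enrichment of 1.88 and held a match with A2G, 86 bp from its summit. No peak was listed within 10 kb of Olig1.
Olig2, GBR ranked 5601, no motif, chr16:91225112-91225312, plus strand: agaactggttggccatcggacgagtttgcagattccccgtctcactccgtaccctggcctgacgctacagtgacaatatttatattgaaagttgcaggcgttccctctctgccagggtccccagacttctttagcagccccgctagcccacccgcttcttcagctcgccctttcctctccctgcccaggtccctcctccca
Olig2, peak ranked 15192, chr16:91226074-91226102, plus strand: cctcattgagGGCCACCCAgaagtccctg

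**Figure D3:**
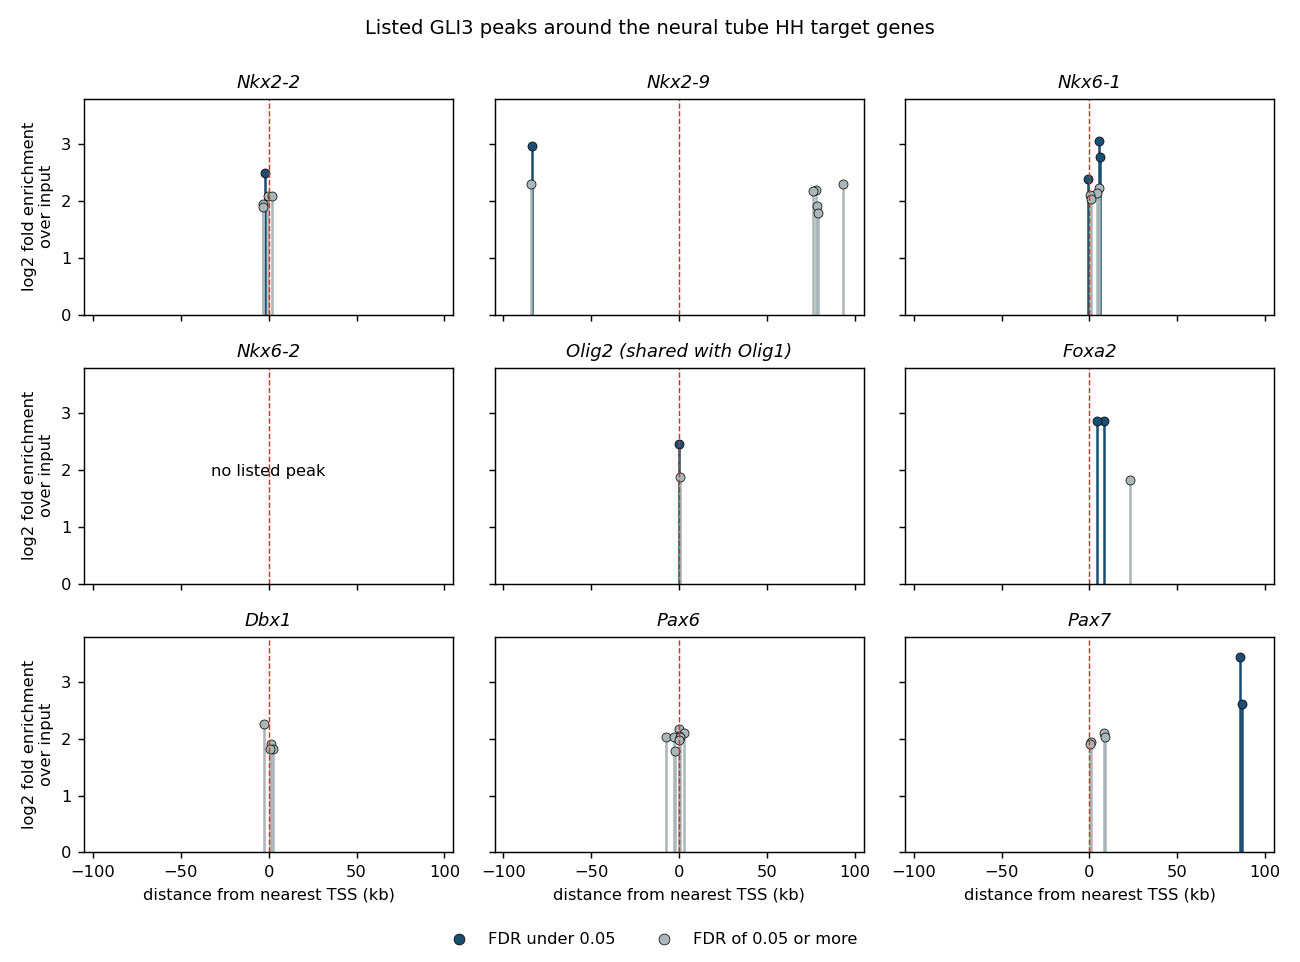
Listed peaks by distance from the nearest TSS in kb (horizontal, positive in the direction of transcription) and log2 fold enrichment over input (vertical), in a panel for each gene, with each peak drawn once at its nearest member. GBRs (dark) stand beside the TSS at Nkx2-2, Nkx6-1, Olig2 and Foxa2 and at 85.7 to 86.6 kb at Pax7, and the Nkx2-9 peaks leave the 50 kb on each side of its TSS empty.

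Among the genes that HH signaling limits, Pax7 had the strongest peak of all 42. Pax7 marks dorsal neural progenitors and later muscle stem cells. Its best GBR (chromosome 4, 139747050 to 139747399, log2 3.43, rank 857) and a second one beside it (139746050 to 139746549, log2 2.61, rank 4261) lay 85.7 and 86.6 kb downstream of the TSS, in an intron near the 3′ end of the gene. Pax7 was the gene of the nearest protein-coding TSS to both. The 4 peaks within 10 kb of its TSS were not GBRs, with log2 values of 1.90 to 2.11. No Pax7 peak held a GLI motif with at most 1 mismatch. The 201 bp around the strongest summit are shown as an example of a well-enriched region without such a match.
Pax7, GBR ranked 857, no motif, chr4:139747187-139747387, plus strand: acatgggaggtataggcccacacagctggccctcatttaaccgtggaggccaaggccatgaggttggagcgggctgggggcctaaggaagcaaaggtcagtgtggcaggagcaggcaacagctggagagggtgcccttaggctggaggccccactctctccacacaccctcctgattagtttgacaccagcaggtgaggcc

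Pax6, a regulator of eye and intermediate neural progenitors, had the most listed peaks of the 10 genes and no GBR. Its 8 peaks had log2 fold enrichments of 1.78 to 2.18 and FDR values of 0.143 to 1. All lay within 10 kb of one of its 24 annotated TSSs, which spread over more sequence than those of the other members. The nearest GBR was 623 kb away (rank 6491, log2 2.38). Matches with 1 mismatch were in 2 of the 8 windows, with C7A at 71 bp and C8A at 217 bp from the summit.

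Dbx1, which marks the progenitors of a class of intermediate interneurons, had 4 listed peaks within 2.52 kb of its TSS. Their log2 fold enrichments were 2.26, 1.91, 1.82 and 1.81, none was a GBR and none held a motif. The second of them had a −log10 Poisson p of 10.4, above the 9.12 of the GBR at the Nkx6-1 promoter, so that this other measure of the caller ordered these peaks differently. The nearest GBR was 114 kb away.

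The genes differed in how many peaks lay close to a TSS. Of the 42 peaks, 32 were within 10 kb of a member TSS, of which Pax6 with its 24 TSSs held 8 and Nkx6-1 held 7. Nkx2-9, Nkx6-2 and Olig1 had 0, and Olig2 and Foxa2 had 2 each. Promoters, from 2 kb before to 1 kb after a protein-coding TSS, were overlapped by 40.5% of the 42 peaks, beside 49.2% of all listed peaks, and 4 of these 17 peaks were at Nkx2-1. As pairs of a gene and a peak within 100 kb, 72.7% of the 44 pairs of the members were within 10 kb, beside 23.9% of the 61358 pairs of all protein-coding genes. The members have few neighbors, with a median of 0.5 other protein-coding genes within 100 kb, beside 4 for all genes, and the part of this in the difference was not tested. At least 4 listed peaks within 10 kb were found at 5 members (Nkx2-2, Nkx6-1, Dbx1, Pax6 and Pax7) and at 2.89% of all protein-coding genes. At 3 of these 5 none of the peaks was a GBR, beside 8.19% of the 635 genes with that many. This limit of 4 peaks was chosen after the values were seen.

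The windows around the 42 summits had a median GC content of 55.2%, beside 55.9% for all listed peaks, and a median ratio of observed to expected CpG of 0.662, beside 0.555. Summits of 23 were in introns of protein-coding genes, 7 in UTRs, 4 in coding exons, 4 in introns of noncoding genes and 4 between genes. Median length was 200 bp, beside 250 bp over the list.

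A GLI motif with at most 1 mismatch was present in the window of 6 of the 42 peaks (14.3%, 95% Wilson interval 6.72 to 27.8). Over all listed peaks the share was 17.9%. The study scanned with a motif matrix instead, and reported motifs in a larger share of each GBR class it compared than the shares given here. Within the called peaks themselves a motif was found in 3 of the 42 (7.14%), beside 2190 of all 17144. These 3 were at Nkx2-2, Pax6 and Olig2. Of the 6 windows with a motif, Foxa2 and Pax6 had 2 each, and Nkx2-2 and Olig2 had 1 each. An exact consensus was in 2 of the 42 windows, at Nkx2-2 and Foxa2 (4.76%, beside 2.17% of all). Among the 10 GBRs, 2 held a motif (20%, beside 20.8% of all 7282 GBRs), the Nkx2-2 site and the farther Foxa2 site. The stretch from 250 bases before to 50 after a RefSeq TSS was searched too. It was given for 9 of the 10 genes (not Olig1) as 12 promoters, of which 1, at a Foxa2 TSS, held a match with 1 mismatch, beside 6.75% of all 32817 promoters.

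For comparison, the same counts were made for genes of the HH pathway and for limb HH targets. A GBR lay within 100 kb of 13 of 14 pathway genes (all but Shh) and 12 of 12 limb targets, beside 53.9% of all protein-coding genes. The limb buds of this stage contain active HH signaling. However, the study found nearly all nuclear GLI3 in the anterior limb bud, as repressor, and little or none in the posterior part. It therefore regards the GBRs as likely to be bound by GLI3 repressor only. Whether HH signaling has a part in these counts was not tested. GBRs made up 54.9% of 82 listed peaks near pathway genes and 52% of 125 near limb targets. Over all peaks on placed chromosomes the share was 42.5%. The highest log2 fold enrichments were 6.05 at Ptch1, the HH receptor, and 5.76 at Gli1, a general HH target, beside 3.43 at Pax7. Other neural progenitor factors had GBRs near 8 of 14 genes, which is near the share of all protein-coding genes. GBRs were 29.8% of their 47 peaks, a share nearer to the 23.8% of the neural HH targets. Of the 125 peaks near limb targets, 49 were within 100 kb of Hoxd13 alone. These lists were chosen with earlier results known, Ptch1, Gli1 and Hhip are in both HH lists, and the differences between lists were not tested.

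**Figure D4:**
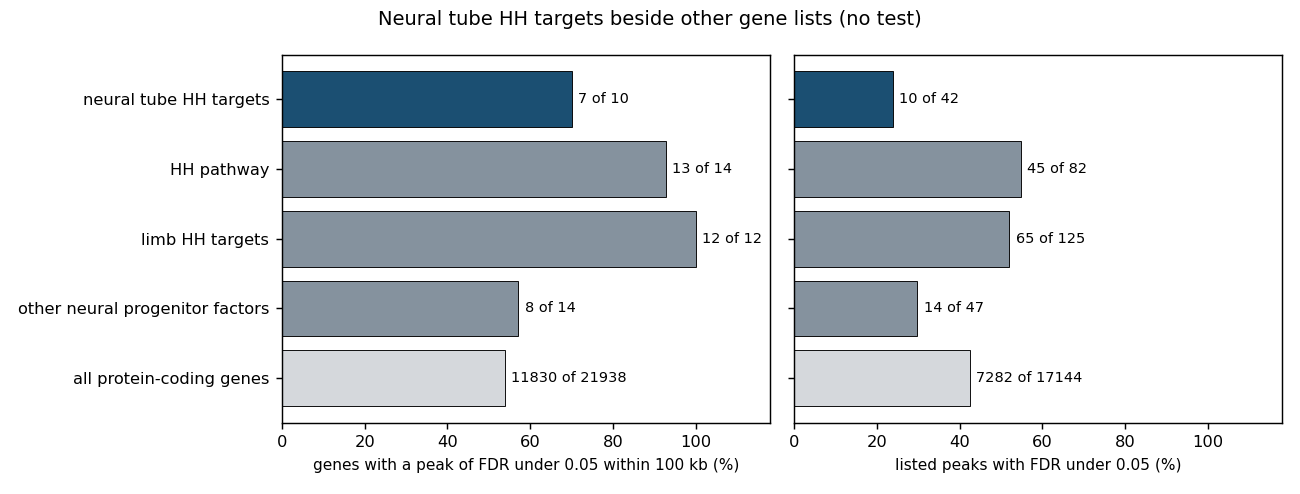
Bars give the percent of genes with a GBR within 100 kb (left) and the percent of listed peaks that are GBRs (right, within 100 kb of the list's genes, or all peaks on placed chromosomes in the lowest bar), with counts beside them. Neural tube HH targets reach 7 of 10 genes and 10 of 42 peaks, fewer peaks in share than any other row.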

How the data were processed

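Forelimb buds with FLAG-tagged GLI3 were profiled by ChIP-seq in 2 replicates with 1 input, and libraries had 15 PCR cycles. The submitters' processing notes name Bowtie2 2.2.5 and mm10. The study names CisGenome for peak calling, so the single list, attached to replicate 1, was taken as a joint call of both replicates, which the list does not state. The deposited FDR is a q-value from the authors' caller. The deposited log2 fold enrichment of ChIP over input, the score (a T statistic that sets the rank) and the −log10 Poisson p are the authors' values too, each taken at its best window in the peak. The list runs on to an FDR of 1. The study states a minimum sequencing depth per sample, and the list itself gives no read totals.

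Positions are printed as listed. Whether they count from 0 or 1 is not given, so distances may be off by 1 bp. They were compared with the GRCm38.p6 genome (the mm10 assembly), where 0 peaks ran past a chromosome end. The 5 peaks on unplaced sequence entered no comparison. Members' TSSs were those of all GENCODE M21 transcripts. Nearest genes and promoters used protein-coding transcripts. Sequences came from the RefSeq copy of the genome. Intervals are Wilson 95% (scipy 1.17.1, Python 3.11.15) and cover counting error only. The motif search and distances were tested on simulated data with planted answers.

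The members, the lists and the rule for named genes were chosen with earlier results of these data known. Named genes are the 10 members, the genes at their peaks and examples from 3 lists. Named peaks are all GBRs, the best peak of each member and peaks with an exact consensus, and the other peaks of the members are named as a full account of the 42. No test was made, because the list holds no value per replicate. Alternatives changed the distance, FDR threshold, TSS set, gene assignment and motif settings.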

Additional observations from a re-analysis of the deposited data

How the results depend on the processing

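Alternatives were computed for 6 results, 23 in all, and 18 stayed within 1.5 times a count, the Wilson interval of a share or the interquartile range of the median. The count of peaks near the members rose from 10 at an FDR under 0.05 to 17 at an FDR under 0.2. Members with a GBR fell from 7 to 4 at an FDR under 0.01, and to 5 within 50 kb or where a member's TSS had to be the nearest. An exact consensus lowered the share of peaks with a motif to 4.76%, and allowing 1 mismatch lowered the share of matches in a listed peak to 0.690%. The median log2 fold enrichment of GBRs alone was 2.82, which follows from the FDR threshold. No paired analysis was possible because the peaks used here carry no values for replicates 1 and 2 separately, and for the same reason leaving out a replicate was not run. The list gives no read counts per region, so no detection limit could be set for a gene without a listed peak.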

Other observations

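Beyond the 100 kb limit, the regions around several members held further peaks, given as values only. The peaks just inside and just outside the limit were at 93.4 kb from Nkx2-9 (log2 2.31) and at 100.2 kb from Nkx6-1 (log2 2.00), the latter at the promoter of Cds1. On the Nav2 side of Dbx1, 3 GBRs lay 114, 140 and 186 kb downstream of its TSS, with log2 fold enrichments of 2.34, 2.65 and 3.22. All 3 were stronger than the 4 peaks beside Dbx1 itself, none held a GLI motif, and Nav2 was the gene of their nearest TSS. Around Pax1, 168 to 180 kb upstream of Nkx2-2, 4 peaks had log2 values of 1.99 to 2.23, and 2 of them held a motif with at most 1 mismatch. Another GBR lay 159 kb downstream of Foxa2 (log2 2.43), which was the gene of its nearest TSS, and one lay 173 kb downstream of Nkx2-2 at Xrn2 (log2 2.52). A peak 136 kb upstream of Foxa2 (log2 2.13) held an exact consensus, as did the windows of 2 neighboring peaks 197 kb upstream of Pax7 (log2 2.31 and 2.10). None of these 3 peaks with an exact consensus was a GBR.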
